A study of Homo sapiens with 30 samples.

Results

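The cholesterol and fatty acid synthesis genes described here are 31 named genes followed through every analysed group of OPM2 and Delta47, which are human myeloma lines (tumours of plasma cells). They were chosen by symbol as genes of these pathways, though with earlier results of these data known. All 31 were present among the 16407 genes of the OPM2 table and the 17286 genes of the Delta47 table. All 31 also passed the filter for testing, a minimum value of 1 that 3 or more libraries of the line had to reach, which left 10309 genes in OPM2 and 11001 in Delta47.

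In both lines the transcription factor gene FOXM1 had been cut in exon 2 by Cas9 protein delivered with guide RNA, and cells were then grown from single cells. WT stands for the unedited line, and KO1 and KO2 are knockout clones, 1 clone per group, so that a difference from WT can also be a property of that clone. In OPM2, clone KO1 was also given a lentivirus without FOXM1 (KO1EV) or with the FOXM1c isoform (KO1R). In Delta47, clone KO2 carried the FOXM1c lentivirus (KO2R). The transduced cells had been sorted for GFP. Each of these 9 groups had 3 libraries, 27 in all. The Delta47 empty-vector group was not analysed here, so KO2R could be set only against untransduced KO2, and an effect of the vector itself cannot be told apart from one of FOXM1c there.

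Cells build cholesterol from acetyl-CoA through mevalonate, farnesyl diphosphate, squalene and lanosterol. Fatty acids start from the same precursor through ACLY, ACACA and FASN. The SREBP transcription factors, encoded by SREBF1 and SREBF2, drive many genes of both routes. SCAP escorts them out of the endoplasmic reticulum when sterol is low, and INSIG1, itself an SREBP target, holds them back when sterol is high. Plasma cell tumours secrete large amounts of protein and hold a wide endoplasmic reticulum, the membrane in which most of these enzymes sit.

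To show the regulatory sequence of genes whose values are followed below, the 250 bases before the start site are given for the sterol enzymes MSMO1 and MVD and the regulators INSIG1 and SREBF2, as RefSeq has them on GRCh38.p14. MSMO1 is at chr4:165327419-165327668 (plus strand). MVD is at chr16:88663092-88663341 (minus strand). INSIG1 is at chr7:155297628-155297877 (plus strand). SREBF2 is at chr22:41832855-41833104 (plus strand). Each is written in the direction of its gene, and capitals mark the CCAAT box on either strand (CCAAT or ATTGG) and the sterol regulatory element (TCACNCCAC, either strand).
MSMO1: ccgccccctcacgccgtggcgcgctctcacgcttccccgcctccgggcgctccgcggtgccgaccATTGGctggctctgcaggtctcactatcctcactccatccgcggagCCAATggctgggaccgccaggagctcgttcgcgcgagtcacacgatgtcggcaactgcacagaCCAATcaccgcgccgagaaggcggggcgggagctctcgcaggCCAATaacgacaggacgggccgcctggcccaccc
MVD: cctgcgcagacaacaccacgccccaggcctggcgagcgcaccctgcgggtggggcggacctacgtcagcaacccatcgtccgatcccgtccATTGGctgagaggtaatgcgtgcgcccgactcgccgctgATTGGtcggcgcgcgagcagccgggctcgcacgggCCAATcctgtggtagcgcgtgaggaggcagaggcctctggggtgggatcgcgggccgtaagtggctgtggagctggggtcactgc
INSIG1: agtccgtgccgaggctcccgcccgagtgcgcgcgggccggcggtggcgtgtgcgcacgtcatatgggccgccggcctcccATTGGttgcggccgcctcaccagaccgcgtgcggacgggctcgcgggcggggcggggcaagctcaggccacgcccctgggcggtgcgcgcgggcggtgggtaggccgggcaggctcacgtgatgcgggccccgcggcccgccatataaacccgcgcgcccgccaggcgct
SREBF2: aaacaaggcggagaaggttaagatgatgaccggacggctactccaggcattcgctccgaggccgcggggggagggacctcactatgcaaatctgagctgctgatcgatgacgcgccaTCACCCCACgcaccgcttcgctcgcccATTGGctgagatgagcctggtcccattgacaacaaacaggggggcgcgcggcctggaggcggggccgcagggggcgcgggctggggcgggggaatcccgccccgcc
MSMO1 held 4 CCAAT boxes in this stretch, MVD 3, INSIG1 1 and SREBF2 1. SREBF2 also held 1 match of the sterol regulatory element. These 4 genes were chosen after their values and matches had been seen.

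RefSeq windows of 300 bases, from 250 before to 50 after the start, were found for 27 of the 31 genes and were compared with the windows of 27305 genes. These were not limited to genes tested here, so members and all genes are not matched for expression. A gene with several windows was counted once, if any window held the motif. CCAAT stood in a window of 77.8% of these members and of 39.7% of all genes, and at least 2 copies stood in 51.9% and 12.9%. The GC box GGGCGG stood in 96.3% of members and 48.3% of all genes. The E-box CACGTG stood in 14.8% of members and 8.8% of all genes. TCACNCCAC stood in 1 member, SREBF2, which is 3.7%, against 1.4% of all genes. A form with C at the open base, TCACCCCAC, and a looser form of the element each matched at that same place in SREBF2 and in no other member. The forkhead motif GTAAACA stood in 3.7% of members and 4.2% of all genes, and the cell cycle element TTTGAA in 11.1% and 18.2%. These are the 8 motifs searched, each on both strands, and no test was made of them.

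The edit was checked first in FOXM1 itself. In OPM2 the WT libraries held 175, 176 and 177 FPKM (fragments scaled by transcript length and library size), those of KO1 between 91.2 and 93.3, and those of KO2 between 57.1 and 69.7. KO1EV held 105 to 109 FPKM and KO1R 263 to 292. In Delta47, where the authors' table names no unit and levels are called the authors' expression value, WT lay between 87.1 and 90.9, KO1 between 46.1 and 49.8, KO2 between 45.4 and 47.1, and KO2R between 94.4 and 102. A cut in the coding sequence need not remove the transcript, and the protein was not measured in these data. All 9 plasma cell markers in the tables averaged at least 1 in both lines. Their sum was 4600 to 4725 in Delta47 WT, 4456 to 4559 in KO1, 3242 to 3295 in KO2 and 4434 to 4441 in KO2R. JCHAIN, the highest of them, had a mean of 2851 in WT and 1493 in KO2. All 9 were called in each Delta47 clone against WT, where 52.6% of all tested genes were called in KO1 and 43.6% in KO2. They went both ways, 3 higher and 6 lower in KO1 and 4 higher and 5 lower in KO2. In OPM2 the sum lay between 6651 and 8080 FPKM. Summed B cell, epithelial and stromal or endothelial markers each reached at most 1.67 FPKM in OPM2. In Delta47 the stromal or endothelial sum rose from 1.64 to 1.71 in WT to 14.2 to 15.9 in KO2 and 13.5 to 15.02 in KO2R, nearly all of it PECAM1, and the epithelial sum went from 5.49 to 6.47 in WT up to 12.01 to 12.9 in KO2R. The part of these markers in the results below was not tested.

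A pair of OPM2 libraries stood apart from their groups, KO2 replicate 3 and KO1EV replicate 3. Over all tested genes the SD of their log2 difference from the other libraries of the group was 0.533 and 0.271, while for every library of the WT, KO1 and KO1R groups it was between 0.1 and 0.139. Among the stress genes, DDIT3 held 79.3 and 81.1 FPKM in KO2 replicates 1 and 2 but 7.04 in replicate 3, and 39.3 and 38.2 FPKM in KO1EV replicates 1 and 2 but 9.45 in replicate 3. INHBE, another gene of that response, held 100.0 and 96.4 FPKM in KO2 replicates 1 and 2 against 6.62 in replicate 3. The chaperone gene HSPA8 was opposite, at 352 and 350 FPKM in replicates 1 and 2 of KO2 and 1495 in replicate 3. The group KO1 also differed from WT in these genes, with DDIT3 at 17.4 to 21.5 FPKM against 50.3 to 54.3 and HSPA8 at 811 to 937 FPKM against 435 to 455. The OPM2 values below come from the fit with all libraries, and values from a fit without this pair are given for the counts and for most of the genes named from groups KO2 and KO1EV. That fit keeps only replicates 1 and 2 of KO2 and of KO1EV. The pair was left out because it stood apart in these data. The p-values and counts of that fit therefore do not measure the full spread of those groups.

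In unedited OPM2 cells the levels per length spanned a wide range. SCD, which puts the double bond into saturated fatty acids, was highest at 438.7 ± 12 FPKM (SD, n = 3), followed by FDPS at 370.5 ± 8.04, INSIG1 at 296.5 ± 9.86 and FDFT1 at 226.7 ± 4.61. The lowest were FADS2, a fatty acid desaturase, at 2.5 ± 0.165 FPKM, STARD4, a cholesterol carrier, at 4.01 ± 0.645, and SC5D, a late sterol desaturase, at 5.287 ± 0.247. Neighbours among the top 4 were further apart than their SD.

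**Figure D1:**
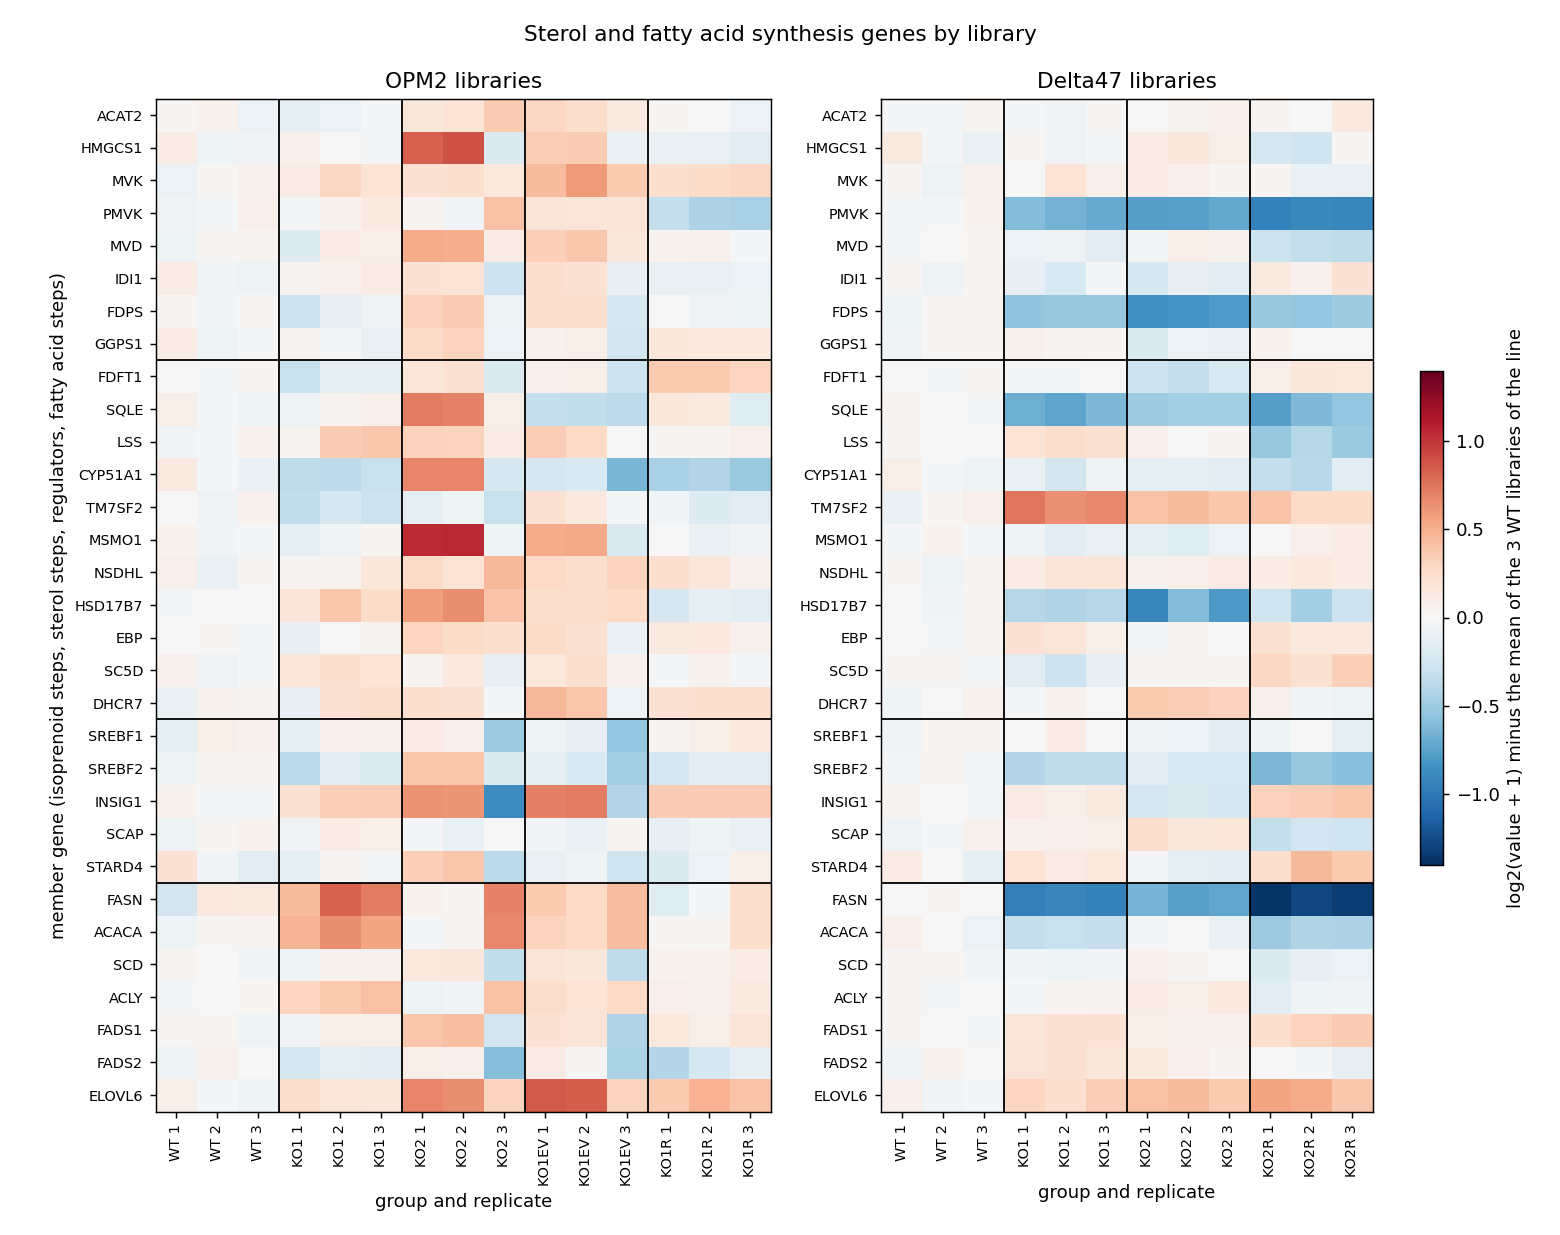
Log2(value + 1) of each of the 31 genes in each library minus the mean of the 3 WT libraries of its line, with OPM2 on the left, Delta47 on the right, and genes as rows ordered by role (blue below and red above WT). FASN is the darkest blue in Delta47, with a mean of -1.33 in KO2R, and red in OPM2 KO1 with a mean of 0.66, and the OPM2 columns KO2 3 and KO1EV 3 differ from the columns beside them.

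In OPM2 clone KO1 most of the 31 genes were not called, and the called ones included the fatty acid genes FASN, ACACA and ACLY. Of the 31 genes 4 were higher and 1 lower than in WT, or 16.1%, where 21.2% of all tested genes were called. The median change of the 31 was 0.01 and that of all genes 0.07 (log2). Among the 7 fatty acid genes 3 rose, FASN, ACACA and ACLY, and 4 were not called. Among the 19 enzymes from ACAT2 to DHCR7 only HSD17B7 was called higher and only TM7SF2 lower.

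FASN encodes fatty acid synthase. Its WT libraries held 64.5, 85.1 and 84.8 FPKM and its KO1 libraries 106, 138 and 128 FPKM. Each KO1 library was above each WT library, and the log2 change was 0.66 ± 0.18 (SE, adjusted p = 0.0182). ACACA makes the malonyl-CoA that FASN uses. It went from 8.54, 9.01 and 9.19 FPKM in WT to 12.8, 14.5 and 13.5 FPKM in KO1, a log2 change of 0.56 ± 0.14 (adjusted p = 0.0153). ACLY, which makes cytosolic acetyl-CoA from citrate, held 58.6 to 60.9 FPKM in WT and 73.7 to 79.6 FPKM in KO1, a log2 change of 0.36 (adjusted p = 0.0245) that was 0.28 and not called once a smooth trend of change with transcript length over all genes was removed (adjusted p = 0.0667). The libraries of WT and KO1 did not overlap for any of these 3 genes. SCD, which acts on the product of FASN, showed a log2 difference of 0.01 and was not called. Leaving out single libraries moved the count of calls in KO1 against WT, which was 0 by limma without WT replicate 1 (6 at an unadjusted p below 0.05). In that fit 13.2% of all genes were called. Without the pair of libraries that stood apart 9 of the 31 were higher and 5 lower, where 58.9% of all genes were called. KO1 and WT do not hold those libraries, so the log2 changes are the same in that fit. What differs is the spread, which the fit shares among all groups. The same holds for KO1R against WT.

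The sterol reductase gene TM7SF2 held 7.15, 6.93 and 7.53 FPKM in WT and 5.47, 6.01 and 5.64 FPKM in KO1, all 3 below WT, with a log2 change of -0.29 (adjusted p = 0.0229). HSD17B7, a ketosteroid reductase of the same stretch of the pathway, held 17.3 to 17.6 FPKM in WT and 19.9, 23.2 and 21.1 FPKM in KO1 (log2 change 0.27, adjusted p = 0.0193). HSD17B7 has a close pseudogene copy, and FDPS has several, so reads of these genes may have been divided among copies and their values are uncertain.

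In OPM2 clone KO2 the called genes were mostly sterol enzymes, and FASN, ACACA and ACLY were not called. Of the 31 genes 7 were higher and none lower than in WT. That is 22.6%, where 14.4% of all tested genes were called, 6.54% higher and 7.82% lower. The median change was 0.19 for the 31 genes and 0.02 for all genes (log2). The 7 genes were ACAT2 and MVD of the mevalonate part, SQLE, NSDHL, HSD17B7 and EBP of the sterol part, and ELOVL6, which lengthens fatty acids. Without the pair of libraries that stood apart 22 were higher and none lower, where 41.2% of all genes were called, 19.3% higher and 21.9% lower, and the median was 0.23. The count was lower in other fits. It was 1 when only the KO2 and WT libraries were fitted, where 3.78% of all genes were called. It was 3 after quantile scaling, where 15.3% of all genes were called. With a trend of change with transcript length removed it was 4, where 14.2% of genes with a length were called. Without WT replicates 2 and 3 it was 2 and 1, where 9.09% and 9.93% of all genes were called. The KO1 and KO2 comparisons share the WT libraries.

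The values by library are given for the genes that moved most between these fits. MSMO1, the methylsterol oxidase, held 65.1, 61.5 and 62.4 FPKM in WT and 131, 132 and 60.4 FPKM in KO2. Its KO2 replicates 1 and 2 were both above every other OPM2 library, and replicate 3 was below all 3 WT libraries. The log2 change was 0.68 ± 0.25 with all libraries (adjusted p = 0.0906) and 1.05 without the pair (adjusted p = 3.04e-10). For KO2 the second fit holds replicates 1 and 2 only, so its p-value leaves out the spread that replicate 3 showed. HMGCS1, which makes the HMG-CoA of the mevalonate route, held 21.3, 18.9 and 19.1 FPKM in WT and 36.1, 37.4 and 17.0 FPKM in KO2. It was not called with all libraries (log2 change 0.51, adjusted p = 0.148) and was called without the pair (0.87). CYP51A1, the lanosterol demethylase, held 49.0, 44.0 and 42.1 FPKM in WT and 72.7, 72.6 and 38.2 FPKM in KO2, with a log2 change of 0.38 (adjusted p = 0.227) that became 0.68 without the pair.

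Some genes held up in all 3 KO2 libraries. EBP, the sterol isomerase, had 87.2, 88.7 and 86.6 FPKM in WT and 108, 105 and 102 FPKM in KO2, with no overlap (log2 change 0.26 ± 0.08, adjusted p = 0.0481, and 0.22 with adjusted p = 0.0993 once the length trend was removed). Without the pair it was 0.28. HSD17B7 had 26.8, 28.1 and 23.4 FPKM in KO2, all above its WT libraries (log2 change 0.55 ± 0.07, adjusted p = 0.000216, and 0.62 without the pair). ELOVL6 had 12.04, 11.2 and 10.9 FPKM in WT and 18.9, 18.4 and 14.3 FPKM in KO2 (log2 change 0.55 ± 0.13, adjusted p = 0.0132, and 0.67 without the pair). SQLE, the squalene epoxidase and a slow step of the pathway, had 85.3, 79.4 and 77.2 FPKM in WT and 133, 131 and 85.3 FPKM in KO2, so that replicate 3 lay within the WT range although the gene was called (log2 change 0.50, adjusted p = 0.0299, and 0.71 without the pair).

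**Figure D2:**
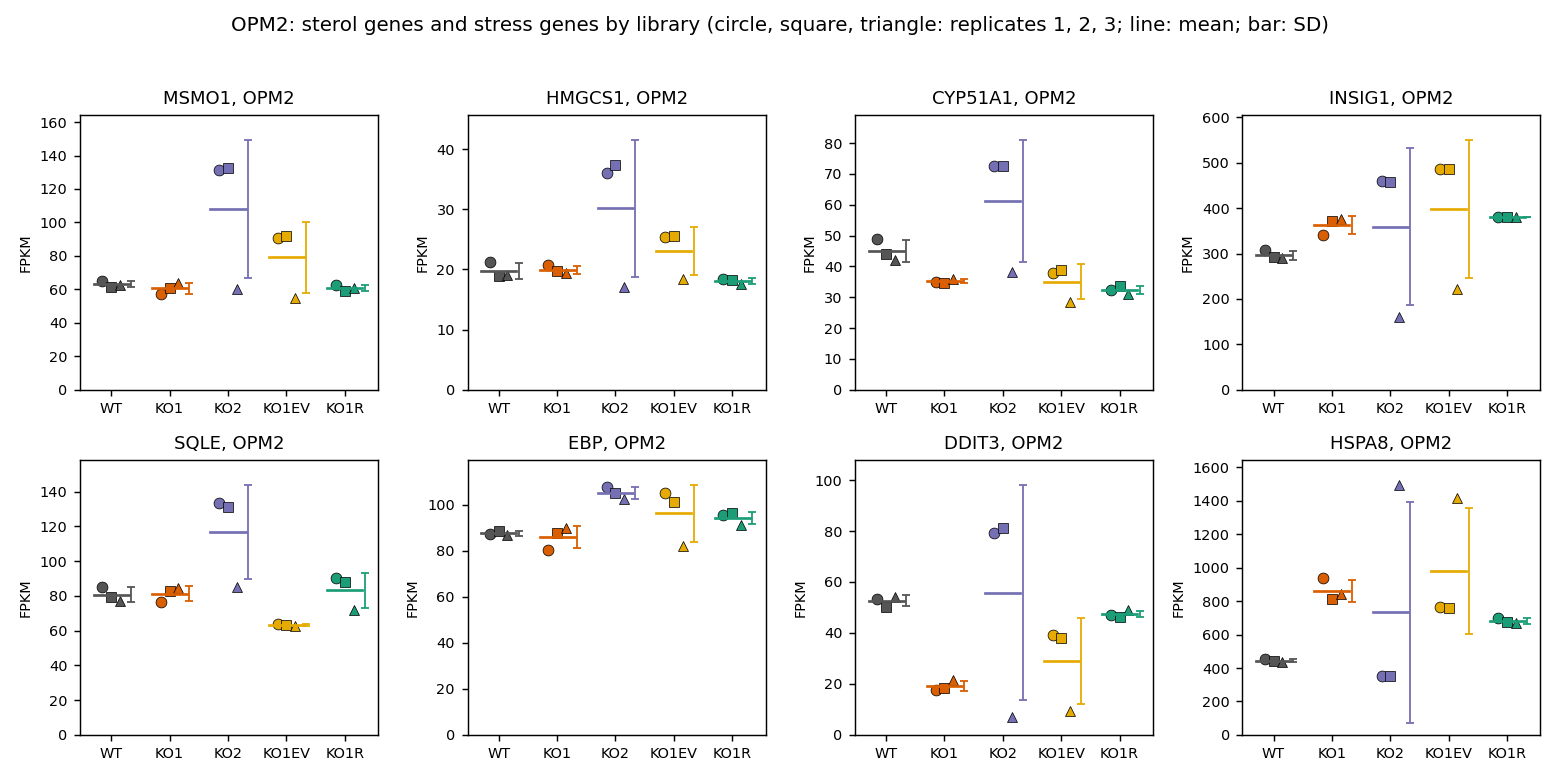
FPKM by library in OPM2 for 6 genes of the pathway and the stress genes DDIT3 and HSPA8. Circles, squares and triangles are replicates 1, 2 and 3, lines are means and bars SD. The KO2 and KO1EV triangles lie below their circles and squares for MSMO1, HMGCS1, CYP51A1 and INSIG1, and for DDIT3, but above them for HSPA8.

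As a summary per library, the 19 enzymes from ACAT2 to DHCR7 had a mean log2 difference from WT of 0.36 and 0.37 in KO2 replicates 1 and 2, with 18 and 17 of the 19 above their WT mean. In replicate 3 it was 0.04, with 9 of 19 above. In KO1EV it was 0.22 and 0.21 in replicates 1 and 2 and -0.05 in replicate 3. Of the 7 fatty acid genes FASN, ACACA and ACLY were higher in KO2 replicate 3 than in replicates 1 and 2, and SCD, FADS1, FADS2 and ELOVL6 were lower. FASN held 80.02 and 78.4 FPKM in KO2 replicates 1 and 2, within the WT range, and 126 FPKM in replicate 3. ACACA held 8.71 and 9.2 FPKM, then 14.8 FPKM, and ACLY 56.8 and 58.0 FPKM, then 80.02 FPKM. The part of the stress genes in these values was not tested.

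The difference between the clones was tested directly. In KO2 against KO1 9 genes were higher and none lower, or 29% of the 31. Of all tested genes 29.9% were called, 10.8% higher and 19.1% lower. MSMO1 differed by 0.74 (adjusted p = 0.04), CYP51A1 by 0.72 (adjusted p = 0.013), SQLE by 0.49 (adjusted p = 0.0187) and the regulator gene SREBF2 by 0.42 (adjusted p = 0.034) on the log2 scale. FASN was lower in KO2 than in KO1 by a log2 difference of -0.41 that was not called (adjusted p = 0.0944). Without the pair of libraries 21 were higher and 3 lower, where 67.7% of all genes were called, 25% higher and 42.7% lower. In that fit MSMO1 differed by 1.11, CYP51A1 by 1.02, SQLE by 0.70 and SREBF2 by 0.62. The 3 lower were FASN at -0.63, ACACA at -0.55 and ACLY at -0.42.

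Regulators of the pathway were not called in either OPM2 clone against WT. SREBF1 held 115 to 134 FPKM in WT, 116 to 133 in KO1 and 138, 134 and 89.0 in KO2. SREBF2 held 134, 142 and 141 FPKM in WT, 107, 126 and 122 in KO1 and 181, 182 and 121 in KO2. SCAP held 14.8 to 16.1 FPKM in WT, 14.9 to 16.8 in KO1 and 14.4 to 15.6 in KO2. INSIG1 had the widest spread. It held 308, 292 and 290 FPKM in WT, 340, 373 and 375 in KO1, and 460, 457 and 160 in KO2, so that KO2 replicates 1 and 2 were above and replicate 3 below every WT library. Without the pair INSIG1 was called higher in KO1 (0.29) and in KO2 (0.63), and SREBF2 lower in KO1 (-0.24) and higher in KO2 (0.38).

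Vector groups of OPM2 ask what the vector alone and FOXM1c do in clone KO1. With the empty vector 2 genes rose against untransduced KO1 and none fell, or 6.45%. Of all tested genes 4.95% were called, 1.78% higher and 3.17% lower. The 2 genes were ACAT2 (log2 change 0.30, adjusted p = 0.0255) and TM7SF2 (0.40, adjusted p = 0.0107). Without the pair 17 rose and 3 fell, where 32% of all genes were called, 12.6% higher and 19.4% lower. ACAT2 then rose by 0.34, TM7SF2 by 0.46, MSMO1 by 0.59 and ELOVL6 by 0.66 (log2). MSMO1 in KO1EV held 90.8, 91.7 and 54.6 FPKM, and INSIG1 486, 487 and 223 FPKM. Both genes had replicate 3 below the other libraries of its group and below WT.

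With FOXM1c in place of the empty vector none of the 31 rose and 2 fell, or 6.45%, where 8.23% of all tested genes were called. PMVK, the phosphomevalonate kinase, held 152, 151 and 152 FPKM in KO1EV and 106, 99.5 and 97.6 FPKM in KO1R, with no overlap (log2 change -0.59 ± 0.10, adjusted p = 0.00194, and -0.59 without the pair). Its WT libraries held 130 to 141 FPKM, all above KO1R (log2 change of KO1R against WT -0.41, adjusted p = 0.0123). HSD17B7 held 21.0, 20.9 and 21.5 FPKM in KO1EV and 14.7, 16.0 and 15.7 FPKM in KO1R (log2 change -0.43, adjusted p = 0.00259, and -0.42 without the pair). KO1R was not called against WT (-0.17, adjusted p = 0.15), and was called lower without the pair (adjusted p = 0.0156). FASN held 99.9, 94.5 and 105 FPKM in KO1EV and 68.6, 75.9 and 91.8 FPKM in KO1R, not overlapping but not called (log2 change -0.35, adjusted p = 0.254, and -0.31 without the pair, adjusted p = 0.0866).

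Without the pair the count of KO1R against KO1EV became 2 higher and 17 lower, where 26.4% of all genes were called, 9.25% higher and 17.2% lower. The members' median was then -0.24 and that of all genes -0.043 (log2). MSMO1 fell by 0.57 and HMGCS1 fell by 0.47 on the log2 scale in that fit, and SQLE rose by 0.38. KO1R against WT had 1 gene higher, MVK at 0.26 (adjusted p = 0.0276), and 1 lower, PMVK, or 6.45%, where 14.7% of all tested genes were called. Without the pair 9 were higher and 5 lower, where 44.5% of all genes were called.

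**Figure D3:**
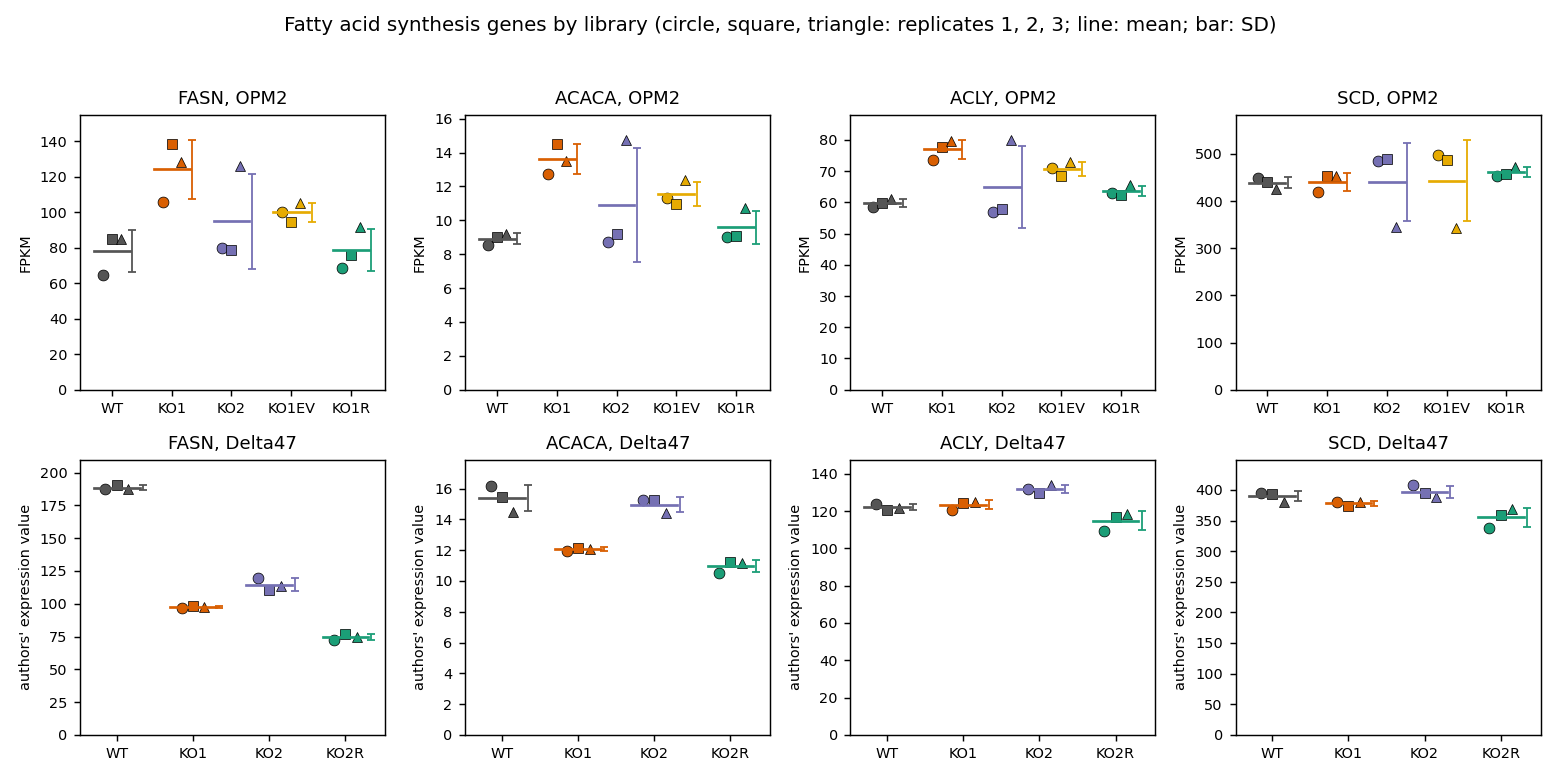
Levels by library of FASN, ACACA, ACLY and SCD, with OPM2 in FPKM in the upper row and Delta47 in the authors' expression value in the lower row. Circles, squares and triangles are replicates 1, 2 and 3, lines are means and bars SD. FASN lay above WT in OPM2 KO1 and below WT in every Delta47 group that carried the edit.

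In Delta47 calls ran in both directions, and the SD of each library's log2 difference from the others of its group lay between 0.106 and 0.134 over all tested genes. In KO1 8 of the 31 were higher and 8 lower than in WT, or 51.6%, where 52.6% of all tested genes were called. In KO2 5 were higher and 10 lower, or 48.4%, where 43.6% of all tested genes were called. The medians of the 31 were -0.01 and 0.00, and those of all genes 0.02 and 0.05 (log2). Called lower in KO1 were PMVK, FDPS, SQLE, HSD17B7, SC5D, SREBF2, FASN and ACACA, and higher LSS, TM7SF2, NSDHL, EBP, INSIG1, FADS1, FADS2 and ELOVL6. In KO2 those called lower were PMVK, IDI1, FDPS, FDFT1, SQLE, MSMO1, HSD17B7, SREBF2, INSIG1 and FASN, and those called higher TM7SF2, DHCR7, SCAP, ACLY and ELOVL6. Both comparisons share the WT libraries.

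FASN showed the greatest fall among the 31 in KO1. It held 188, 191 and 187 in WT, 96.4, 98.5 and 97.6 in KO1 and 120, 111 and 113 in KO2, in the authors' expression value, with no overlap of WT and either clone. The log2 changes were -0.94 ± 0.04 (adjusted p = 5.06e-12) and -0.71 ± 0.04 (adjusted p = 1.04e-10). ACACA held 16.2, 15.5 and 14.5 in WT, 11.95, 12.2 and 12.1 in KO1 and 15.2, 15.3 and 14.4 in KO2. It fell in KO1 (log2 change -0.33, adjusted p = 4.77e-05) and was not called in KO2 (-0.04), and the clones differed by 0.29 (adjusted p = 0.000257). With the trend of change with transcript length removed, as described below for KO2R, ACACA was not called in KO1 (-0.12, adjusted p = 0.0505), the clone difference was 0.07 (adjusted p = 0.282), and FASN in KO1 was -0.76. ELOVL6 rose from 3.54, 3.2 and 3.23 in WT to 4.33, 4.08 and 4.48 in KO1 and 4.75, 4.89 and 4.56 in KO2. FADS1 and FADS2 each rose by 0.19 in KO1, and SCD was called in neither clone.

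In the mevalonate part 2 of 8 genes fell in KO1, where 23.7% of all tested genes were called lower, and 3 of 8 in KO2, where 15.2% were. None of the 8 was called higher in either. FDPS, which makes farnesyl diphosphate, held 337, 353 and 360 in WT, 239, 242 and 241 in KO1 and 194, 198 and 201 in KO2 (authors' expression value). Its log2 changes were -0.54 ± 0.03 (adjusted p = 1.02e-09) and -0.82 ± 0.03 (adjusted p = 3.65e-12), and KO2 was lower than KO1 by a tested difference of -0.28 (adjusted p = 3.74e-06). PMVK held 69.2, 69.6 and 72.7 in WT, 46.0, 44.2 and 42.8 in KO1 and 40.9, 41.3 and 42.6 in KO2. Both clones lay below WT without overlap (log2 changes -0.66 and -0.75). IDI1, the isomerase before FDPS, fell in KO2 (-0.17, adjusted p = 0.0135).

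Among the 11 genes from FDFT1 to DHCR7 4 rose and 3 fell in KO1, and 2 rose and 4 fell in KO2. Over all tested genes 28.9% were called higher and 23.7% lower in KO1, and 28.4% higher and 15.2% lower in KO2. SQLE held 107, 105 and 104 in WT, 65.5, 62.9 and 67.7 in KO1 and 73.6, 75.4 and 75.0 in KO2 (authors' expression value). Its log2 changes were -0.68 ± 0.05 (adjusted p = 6.86e-09) and -0.49 ± 0.05 (adjusted p = 3.49e-07). HSD17B7 held 15.04, 14.5 and 15.4 in WT, 11.1, 10.96 and 11.1 in KO1 and 7.45, 9.47 and 8.18 in KO2 (log2 changes -0.41 and -0.78). TM7SF2 went up instead, from 33.9, 36.9 and 38.2 in WT to 61.7, 57.3 and 58.3 in KO1 and 48.2, 49.5 and 47.3 in KO2 (log2 changes 0.69, adjusted p = 8.91e-09, and 0.40, adjusted p = 5.04e-06). DHCR7, a late reductase of the pathway, rose in KO2 (0.34, adjusted p = 5.4e-06) and was not called in KO1 (0.01), and the clones differed by 0.33 (adjusted p = 1.49e-05).

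**Figure D4:**
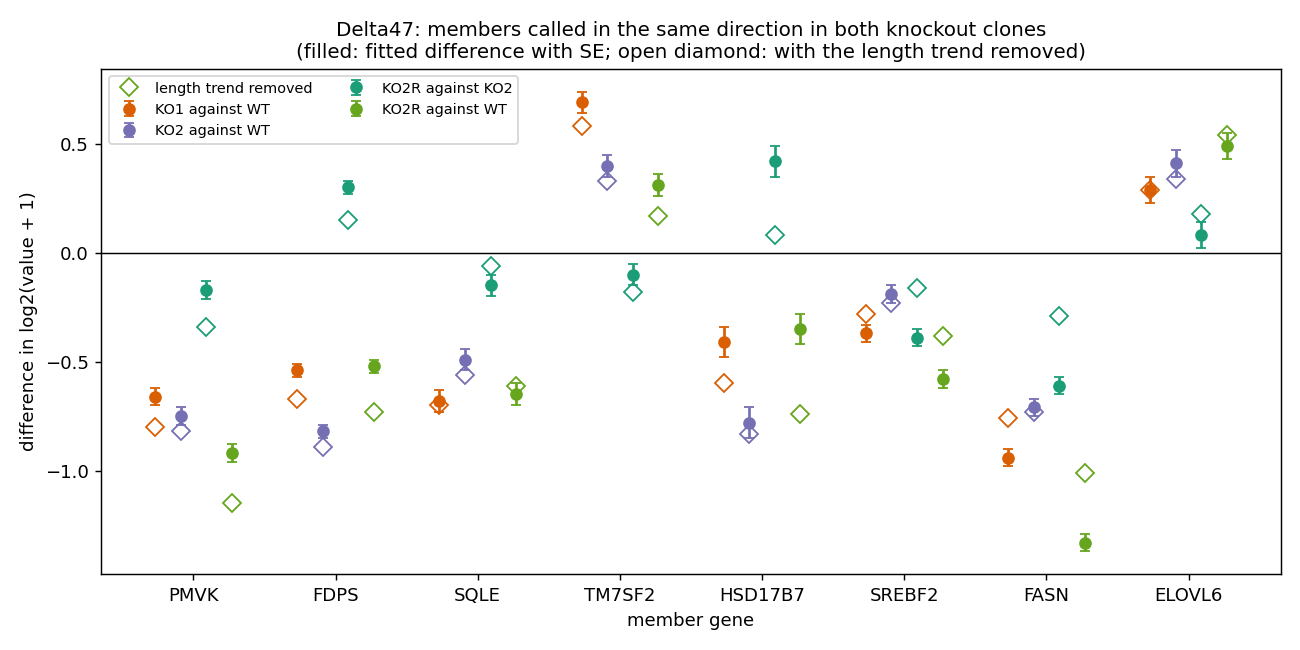
Log2 change with its SE (filled) in Delta47 for the members called in the same direction in both knockout clones, 6 lower and 2 higher. The genes shown were thus picked by their calls. The comparisons are KO1 against WT, KO2 against WT, KO2R against KO2 and KO2R against WT. Open diamonds are the changes with the length trend removed. FASN lies at -0.94 in KO1, -0.71 in KO2 and -0.61 in KO2R against KO2, and FDPS at -0.54, -0.82 and 0.30.

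Regulators were called in part in Delta47. SREBF2 held 55.9, 58.6 and 56.5 in WT, 42.7, 44.4 and 44.4 in KO1 and 50.9, 48.9 and 49.2 in KO2 (authors' expression value). It fell in KO1 (log2 change -0.37, adjusted p = 5.97e-07) and in KO2 (-0.19, adjusted p = 0.000563). SREBF1 held 88.4 to 94.1 in WT, 91.8 to 98.2 in KO1 and 82.9 to 89.1 in KO2 and was called in neither clone. SCAP held 22.8 to 24.7 in WT, 24.6 to 25.1 in KO1 and 26.5 to 27.9 in KO2, and was called higher in KO2 (0.19). INSIG1 held 320, 314 and 307 in WT, 341, 331 and 342 in KO1 and 265, 272 and 267 in KO2. It was higher than WT in KO1 (0.11) and lower in KO2 (-0.23), and the difference between the clones was -0.33 ± 0.03 (adjusted p = 4.01e-07). In KO2 against KO1 9 of the 31 were higher and 12 lower, or 67.7%, where 42.1% of all tested genes were called. That comparison followed transcript length with a Spearman rho of 0.443 over genes (lengths paired with RefSeq). With the trend removed 4 were higher and 12 lower, where 31.9% of genes with a length were called. By lengths over all GENCODE transcripts 7 were higher and 14 lower, where 39.3% were called.

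Delta47 KO2R was set against KO2 to see which levels turned back with the FOXM1c vector. Of the 31 genes 11 were higher and 14 lower, or 80.6%, where 62% of all tested genes were called, and the medians were -0.10 for the 31 and -0.05 for all genes (log2). It shares the KO2 libraries with KO2 against WT.

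This comparison followed transcript length over all tested genes, with a Spearman rho of -0.549 between log2 change and the median length of the transcripts paired with RefSeq, and of -0.191 with lengths over all GENCODE transcripts. The rho is a description over genes of the same libraries. The values below are therefore given also with the length trend removed, by the lengths paired with RefSeq. In that form 13 of the 31 were higher and 9 lower, where 54.2% of genes with a length were called. By lengths over all GENCODE transcripts 12 were higher and 13 lower, where 60.5% were called. KO1 against WT in Delta47 had a rho of -0.398, and KO2 against WT of -0.0665. With the trend removed KO1 had 7 of the 31 higher and 12 lower, where 45.5% of genes with a length were called. KO2 then had 4 higher and 13 lower, where 39.5% were called. By lengths over all GENCODE transcripts KO1 had 8 higher and 12 lower, where 50.4% were called. KO2 had 4 higher and 13 lower by those lengths, where 39.3% were called.

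FDPS rose from KO2 to 243, 240 and 247 in KO2R (authors' expression value), still below WT, a log2 change of 0.30 ± 0.03 (adjusted p = 5.54e-07) and of 0.15 with the trend removed (adjusted p = 0.000966). INSIG1 rose to 393, 399 and 408, above every WT library, a log2 change of 0.58 ± 0.03 (adjusted p = 4.66e-10) and of 0.65 with the trend removed. HSD17B7 held 12.1, 10.5 and 11.95 in KO2R. Its log2 change of 0.42 (adjusted p = 6.42e-05) was 0.08 with the trend removed (adjusted p = 0.343), so the call ended there. FDFT1, which joins farnesyl units into squalene, rose by 0.41 (0.39 with the trend removed) and STARD4 by 0.45 (0.32).

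Other genes went further from WT in KO2R. FASN held 72.2, 77.2 and 74.5 in KO2R (authors' expression value), below all KO2 libraries, a log2 change of -0.61 ± 0.04 (adjusted p = 1.26e-09) and of -0.29 with the trend removed (adjusted p = 5.49e-06). Against WT it was -1.33. PMVK held 36.3, 37.2 and 36.8 (log2 change -0.17, and -0.34 with the trend removed). SREBF2 held 36.5, 39.1 and 37.7 (log2 change -0.39, and -0.16). SQLE held 61.4, 68.1 and 72.2, and its change of -0.15 (adjusted p = 0.0107) was -0.06 with the trend removed (adjusted p = 0.305).

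LSS, the lanosterol synthase, held 43.8, 43.4 and 43.1 in WT, 45.8, 43.5 and 44.3 in KO2 and 29.7, 32.8 and 29.9 in KO2R (authors' expression value), a log2 change of -0.52 against KO2 (-0.37 with the trend removed). SCAP held 18.6, 19.5 and 19.2 in KO2R, below WT and KO2 (-0.48 against KO2, and -0.30 with the trend removed). SREBF1 held 88.01, 91.5 and 83.3 and was not called (0.02), and it was called higher by 0.20 with the trend removed. ACACA fell by 0.42 on the log2 scale, and its change with the trend removed was -0.08 (adjusted p = 0.205). TM7SF2 held 48.0, 44.0 and 43.4, and ELOVL6 5.33, 5.21 and 4.63, both not called against KO2. KO2R against WT had 10 of the 31 higher and 14 lower, or 77.4%, where 69% of all tested genes were called. Its rho with transcript length was -0.481. With the trend removed 7 were higher and 11 lower, where 62.9% of genes with a length were called. With lengths over all GENCODE transcripts 10 were higher and 14 lower, where 68.3% were called.

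Across both lines 24 of the 31 genes were called in at least 1 of the 4 clones against WT, where 75.2% of the 9481 genes tested in both lines were. None was called in the same direction in all 4, where 0.97% of those genes were. The 7 called in no clone were HMGCS1, MVK, GGPS1, CYP51A1, SREBF1, STARD4 and SCD. Called in opposite directions in at least 1 clone of each line were 5 genes, SQLE, TM7SF2, HSD17B7, FASN and ACACA. The share of all genes with such opposite calls was not counted, so this number has no background to be read against. The tables were normalized separately, so no test between the lines was made. ELOVL6 differed from WT by 0.19 in OPM2 KO1 (adjusted p = 0.291) and 0.55 in OPM2 KO2.

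Other genes of these pathways, read from 3 further lists, gave the surrounding picture. Of 21 tested sterol genes outside the 31, 2 rose and 2 fell in OPM2 KO1, 3 rose and 1 fell in KO2, 4 rose and 5 fell in Delta47 KO1, and 7 rose and 2 fell in KO2. These are 19%, 19%, 42.9% and 42.9% of the list, where 21.2%, 14.4%, 52.6% and 43.6% of all tested genes were called. Without the pair 6 rose and 7 fell in OPM2 KO1 and 9 rose and 3 fell in KO2. These are 61.9% and 57.1% of the list, where 58.9% and 41.2% of all genes were called. ERG28, a scaffold of the sterol enzymes, rose in OPM2 KO2 by 0.38 (adjusted p = 0.00431), from a mean of 54.8 to 71.8 FPKM (0.46 without the pair). ERLIN2, which takes part in the breakdown of sterol-sensing proteins, fell in OPM2 KO1 by 0.53 on the log2 scale (adjusted p = 0.000841), and LIPA, the lysosomal lipase, changed in OPM2 KO2 by -0.32 (adjusted p = 0.00443, and -0.28 without the pair). ERLIN1 rose in Delta47 KO1 (0.44) and KO2 (0.37). NPC2, a lysosomal cholesterol carrier, rose in Delta47 KO1 (0.37) and was not called in KO2 (0.04).

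Of the other fatty acid and lipid genes 6 of 27 tested rose and 2 fell in OPM2 KO1, and 3 rose and 3 fell in KO2. In Delta47 16 of 29 rose and 5 fell in KO1, and 14 rose and 1 fell in KO2. Of all tested genes 28.9% were called higher and 23.7% lower in Delta47 KO1, and 28.4% higher and 15.2% lower in KO2. In OPM2 the list had 29.6% called in KO1 and 22.2% in KO2, where 21.2% and 14.4% of all genes were. Without the pair 7 rose and 7 fell in OPM2 KO1 and 8 rose and 4 fell in OPM2 KO2. That is 51.9% and 44.4% of the list, where 58.9% and 41.2% of all genes were called. DGAT2, which makes triglyceride, had mean levels of 1.19 FPKM in OPM2 WT, 2.83 in KO1 and 0.39 in KO2, and the clones differed by -1.46 (log2, adjusted p = 3.18e-07, and 2.62e-09 without the pair). ACSL5, which activates fatty acids, rose in OPM2 KO1 (0.63), fell in OPM2 KO2 (-0.34, and -0.30 without the pair) and rose in both Delta47 clones (0.21 and 0.30). The elongase gene ELOVL7 fell in OPM2 KO1 (-0.29) and KO2 (-0.70, and -0.61 without the pair) and rose with FOXM1c against the empty vector (0.59, adjusted p = 0.000601, and 0.52 without the pair), and LPIN1 rose in OPM2 KO1 (0.31). In Delta47 TECR, a reductase of fatty acid elongation, rose in KO1 (0.58) and KO2 (0.34), AGPAT2 rose by 0.35 and 0.23, and the desaturase gene SCD5 rose in KO1 (0.26) and KO2 (0.65).

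Values are also given for single genes of the liver X receptor and cholesterol efflux list. NR1H2, which encodes a liver X receptor, fell in OPM2 KO2 (-0.35, adjusted p = 0.0084, and -0.28 without the pair). LPCAT3 rose in Delta47 KO1 (0.22) and KO2 (0.25).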

How the data were processed

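Gene expression was measured by poly-A RNA sequencing with paired reads of 100 bases, and the submitters' processing notes name the genome build hg19. The aligner and counter were not given in the sources used here. Per the file headers, the authors deposited FPKM values for OPM2. For Delta47 the deposited table names no unit, and its values were treated as a signal, the authors' expression value. Without counts, depth is unknown. The labels give replicate numbers but do not say that replicates were separate cultures, and the p-values thus reflect variation among libraries only, possibly technical.

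Of 30 samples 27 were used. The Delta47 restored columns were matched by the letter R, and 3 Delta47 columns that matched no single sample were left out, with the empty-vector group they may belong to. Values were taken as log2(value + 1), unscaled. Genes that reached 1 in 3 or more libraries were fitted per line with limma-trend (limma 3.58.1, R 4.3.3), all groups in one fit, two-sided, with Benjamini-Hochberg adjustment over all genes tested, and called at an adjusted p below 0.05. Changes are log2 differences with the SE of the fit, and they understate changes of low genes.

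The members and gene lists were chosen with earlier results of these data known, as was the choice of the OPM2 libraries left out. Full values were printed for members called with a log2 change of at least 0.5 and for SREBF1, SREBF2, INSIG1 and SCAP. HMGCS1, EBP, ACLY and other members were also chosen after their values were seen. From each other list up to 4 genes per line with the smallest adjusted p against WT were to be named, and some that this rule picks are not reported here. Transcript lengths were first taken over all GENCODE transcripts. The definition by transcripts paired with RefSeq was adopted after that result had been seen. Single-gene values with the trend removed use this later definition unless the text says otherwise. Counts with both are given for each clone against WT and for the other Delta47 comparisons. The trend with length was a loess curve of log2 change on log length, subtracted before the test. The motifs were also chosen with the data known. The fit was tested on simulated data with known changes.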

Additional observations from a re-analysis of the deposited data

Results flagged for a closer look

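Some genes were called in opposite directions in the lines. The tables were normalized separately, so these differences between OPM2 and Delta47 were not tested. The log2 changes against WT for TM7SF2 were -0.29 in OPM2 KO1, 0.69 in Delta47 KO1 and 0.40 in Delta47 KO2. For HSD17B7 they were 0.27 and 0.55 in OPM2 KO1 and KO2, and -0.41 and -0.78 in Delta47 KO1 and KO2. FASN changed by 0.66 in OPM2 KO1, and by -0.94 and -0.71 in Delta47 KO1 and KO2. ACACA changed by 0.56 in OPM2 KO1 and by -0.33 in Delta47 KO1. SQLE changed by 0.50 in OPM2 KO2, with overlap of the KO2 and WT libraries, and by -0.68 and -0.49 in Delta47 KO1 and KO2.

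INSIG1 was called in opposite directions in the Delta47 clones, and the tested difference of KO2 from KO1 was -0.33 (log2, limma adjusted p = 4.01e-07).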

How the results depend on the processing

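Counts of the 31 genes called were fairly steady in Delta47 and not in OPM2, and the cause was not tested. For OPM2 the order below is KO1 against WT, KO2 against WT, KO2 against KO1, KO1EV against KO1, KO1R against KO1EV and KO1R against WT. The reported counts are 5, 7, 9, 2, 2 and 2, where 21.2%, 14.4%, 29.9%, 4.95%, 8.23% and 14.7% of all genes were called. With array weights the counts were 18, 22, 26, 22, 24 and 13, where 65%, 54.3%, 73.3%, 42.4%, 42.4% and 56.3% of all genes were called. Without KO2 replicate 3 and KO1EV replicate 3 they were 14, 22, 24, 20, 19 and 14. The shares of all genes were then 58.9%, 41.2%, 67.7%, 32%, 26.4% and 44.5%. With only the groups compared in the limma fit the counts were 14, 1, 0 (9 at an unadjusted p below 0.05), 3, 6 and 11. Of all genes 54.4%, 3.78%, 11.6%, 6.05%, 13.7% and 40.2% were called in that fit. With a log2 change of at least 0.5 required as well the counts were 2, 2, 2, 0, 1 and 0. Of all genes 7.6%, 4.73%, 11.3%, 1.54%, 2.75% and 4.79% then passed. The Delta47 order is KO1 and KO2 against WT, KO2 against KO1, KO2R against KO2 and KO2R against WT. There the counts were 5, 4, 0, 3 and 5, where 8.04%, 7.41%, 3.97%, 9.79% and 18% of all genes passed. In OPM2 KO2 against WT quantile scaling left 3 and removal of the length trend 4, where 15.3% of all genes and 14.2% of those with a length were called. Lengths over all GENCODE transcripts, an alternative listed after seeing the data, gave 3 in KO1 and 4 in KO2 against WT. Of genes with a length 20% and 14.3% were called there.

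Leaving out each library in turn gave 0 to 5, 1 to 18, 1 to 19, 0 to 5, 2 to 4 and 1 to 1 in OPM2 in the order above. The lowest counts came without WT replicate 1 (KO1 against WT), WT replicate 3 (KO2 against WT), KO2 replicate 1 (KO2 against KO1) and KO1EV replicate 1 (KO1EV against KO1, 5 at an unadjusted p below 0.05 by limma). In those fits 13.2%, 9.93%, 21% and 2.9% of all genes were called. The highest counts came without KO1 replicate 1, KO2 replicate 3, KO2 replicate 3 and KO1EV replicate 3, where 14.6%, 30.4%, 60.8% and 5.79% of all genes were called. Omission of KO1EV replicate 3 also gave the highest count of KO1R against KO1EV, where 5.2% were called. Every single omission moved the counts of KO2 against WT, KO1EV against KO1 and KO1R against WT by over 1.5 times, as did each but KO1 replicate 1 in KO1 against WT, and in KO2 against KO1 each KO2 library and KO1 replicate 1 did. In Delta47 it gave 16 to 18, 13 to 15, 16 to 19, 22 to 25 and 20 to 23.

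Replicate numbers were not treated as pairs in the reported fit. Deviations of same-numbered libraries correlated between -0.197 and 0.751 in OPM2 and between -0.223 and 0.201 in Delta47. The medians were 0.072 in OPM2, against -0.0216 for other pairs of libraries, and 0.0214 in Delta47, against -0.00651. In OPM2 9 of the 30 same-numbered pairs were over 0.1. Whether libraries of the same number shared a handling step was not tested. With a replicate block the OPM2 counts were 6, 6, 13, 4, 3 and 4, and the Delta47 counts 18, 15, 21, 25 and 24. Of all genes 25.5%, 15.4%, 33%, 5.36%, 9.46% and 15.8% were then called in OPM2, and 51.9%, 42.7%, 41%, 61.5% and 68.7% in Delta47.

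Scaling moved the direction of calls over all genes. OPM2 KO1 against WT had 1494 higher and 693 lower, 1080 and 1143 after quantile scaling and 907 and 1136 with the length trend removed. Delta47 KO2 against WT had 3122 and 1669, then 2459 and 2096, and 1993 and 2273. In KO2 against KO1 of OPM2, 1118 and 1968 became 1575 and 1618, and 1515 and 1409. KO1R against KO1EV went from 320 and 528 to 426 and 345, and 478 and 268. In Delta47 KO2 against KO1, 2742 and 1894 became 1655 and 1793 with the trend removed. Removing the trend turned the sign of SCD in KO2R against KO2 (0.06, and 0.11 with all GENCODE transcripts) and against WT (0.07 and 0.13), and of ACLY (0.06), IDI1 (-0.01) and NSDHL (-0.01) in KO2R against WT.

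Of the single-gene values recomputed with other settings 1228 kept direction and side of the threshold, 187 fell short of it, 32 newly passed it and 7 turned. With a library left out the counts were 802, 132, 2 and 0. The deposited values carry no depth, so counting error could not be given.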
